A study of Arabidopsis thaliana with 37 samples.

Results

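GH3.3 (AT2G23170), WES1 (also called GH3.5, AT4G27260), IAGLU (AT4G15550) and IAA18 (AT1G51950) are Arabidopsis genes of auxin conjugation and auxin response. They were chosen by name through the platform's probe-to-gene table, where each has 1 probe set of its own (16995_at, 16989_at, 16603_s_at and 20402_at), and they make 4 of the 3602 genes named in this way. Earlier results of these data were known when the 4 genes were chosen. The suffix of the IAGLU probe set marks a design that can match more than one transcript. Total RNA of whole seedlings was hybridised to 37 one-colour Affymetrix arrays with 8247 probe sets, in 11 groups set by genotype and age. At 9 days there were 3 arrays of the wild type Ler, 3 of the wild type Col, 4 of ago1-10 and 4 of ago1-11. The 21-day seedlings comprised 3 arrays of Ler (1), the first of 2 Ler sets, 4 of the second, Ler (2), 3 of Col, 3 of ago1-10, 3 of ago1-11 and 4 of dcl1-9. At 35 days there were 3 arrays of ago1-10, with no wild type of that age. The labels record no treatment for any group.

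The alleles ago1-10 and ago1-11 lie in ARGONAUTE1, the protein that uses microRNAs to cut or silence matching mRNAs, and dcl1-9, whose samples are titled caf, lies in DICER-LIKE1, which makes most plant microRNAs. All 3 are known as alleles that leave part of the gene's function, so they model reduced and not absent activity. Ler was used as the wild type of both ago1 alleles and of dcl1-9, from background knowledge, since the labels name no parent line. Strain codes split some groups: 9-day ago1-10 holds 3 arrays coded MR44 and 1 coded MR49 (replicate 4), the 35-day ago1-10 arrays are all MR49, the 4 ago1-11 arrays at 9 days carry 4 codes, and those at 21 days carry 1. Title numbers do not follow age throughout in ago1-10. That of 21-day replicate 3 is shared with later 35-day replicates, and that of 35-day replicate 1 with the other 21-day arrays. Groups follow the age labels, and whether these arrays belong to the other age was not tested.

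Auxin (indole-3-acetic acid) sets growth and organ formation, and its level is lowered by enzymes that tie it to other molecules. GH3 enzymes join it to amino acids and glucosyltransferases join it to glucose, while Aux/IAA proteins repress auxin response genes until auxin brings about their breakdown. GH3 and Aux/IAA genes are themselves among the classic auxin-induced transcripts, and mRNAs of several auxin response factors and of TIR1-type auxin receptors are known microRNA targets.

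Signals below are MAS5 intensities after the array medians had been made equal. A signal of 12, the 40th percentile of all values, was the floor of the filter, which 6048 probe sets passed on at least 3 arrays. All 4 genes passed it. WES1, IAGLU and IAA18 lay above 12 on 37 of 37 arrays and GH3.3 on 13 of 37. Differences are in log2(signal + 1.1), first group minus second, from 1 limma model over all arrays, and a difference counts as called when its p, adjusted by Benjamini and Hochberg over all 6048 probe sets of that comparison, is under 0.05. The number of arrays per group, 3 or 4, limits the precision.

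Before scaling, array medians ran from 11.3 to 30.2. All 7 green-tissue markers on the list (RCA, LHCB4.1, PSAE-1, PRK, SBPASE, PSAN and PORB) were measured, with summed signals from 6139.5 to 23760.1 over the arrays; 3 of 8 flower markers (ACT11, ROXY1 and TUA1) were measured, while AP1, AP3, PI, AG and SEP3 were not analysed here, and 0 of 4 root markers. The mutated genes AGO1 and DCL1 were not analysed here, so the labels were not checked against them. At 60 probe sets that separated Ler from Col by at least 2 on the log2 scale at both ages, ago1, dcl1-9 and Ler (2) arrays lay nearer Col at 1 to 10 of them and so mostly like Ler. The 2 sets carried arrays unlike the rest of their group at one gene used here: AT1G61190, which lies in locus order beyond IAA18 on the same chromosome, stood at 8.7 on Ler (2) replicate 1 and at 287.6 to 372.7 on the other 3 Ler (2) arrays, and at 18.7 on dcl1-9 replicate 4 against 199.7 to 483.8 on the other 3 dcl1-9 arrays. Ler (2) replicate 1 is titled Ler21 and the other 3 WT21. Results that rest on these arrays are given with and without them.

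**Figure D1:**
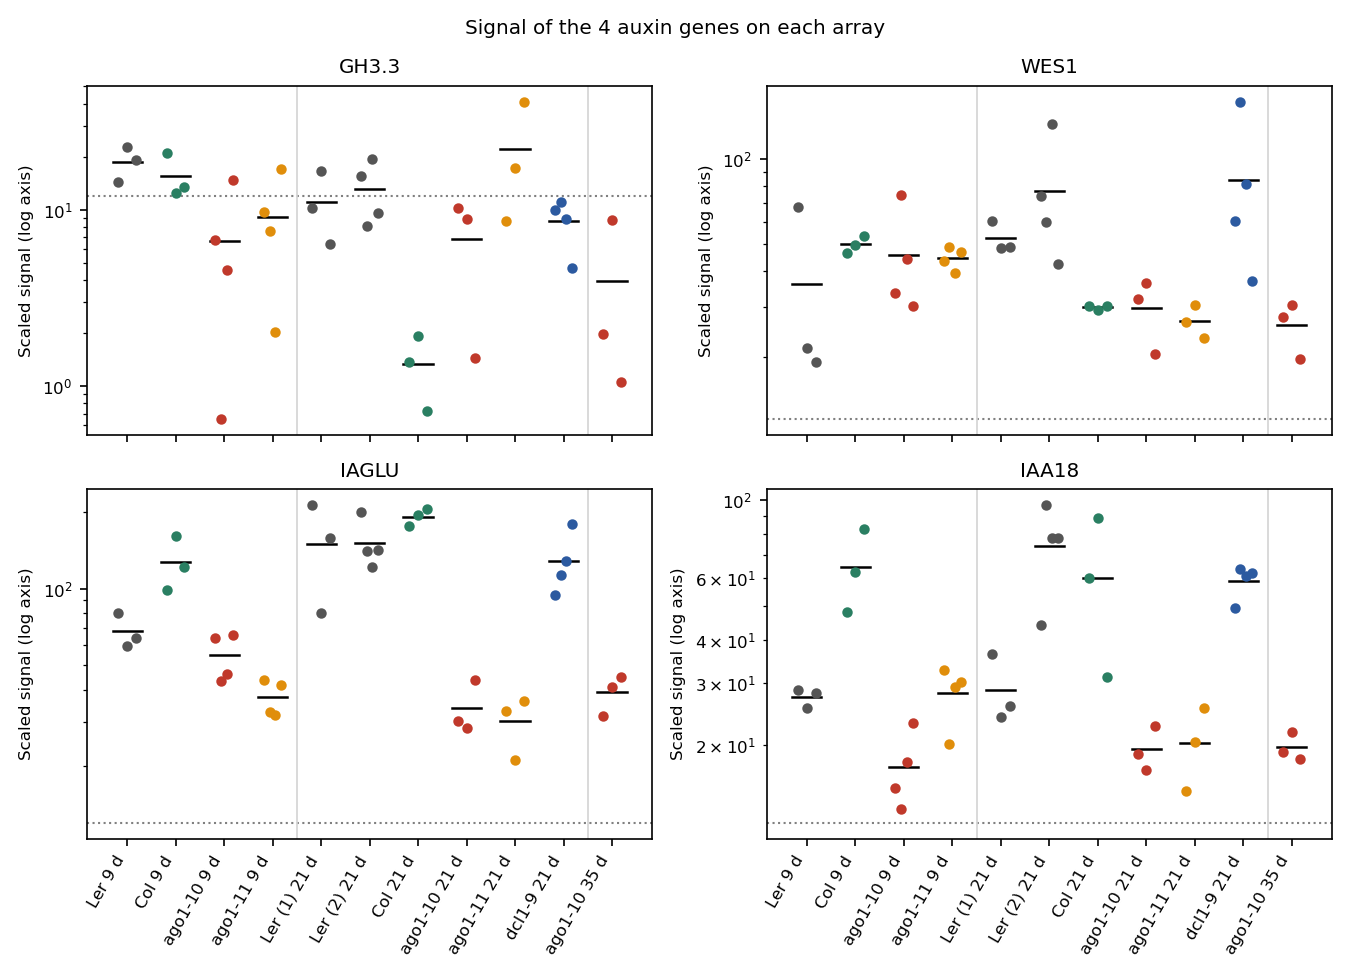
Scaled signal (log axis) of GH3.3, WES1, IAGLU and IAA18 on each of the 37 arrays, in the order 9, 21 and 35 days with vertical lines between ages; points are arrays, bars are group means and the dotted line is the filter value of 12. GH3.3 lies around or under that line in most groups, and at 21 days every ago1 array of IAGLU lies under every Ler, Col and dcl1-9 array.

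The amido synthetase GH3.3 was dim on these arrays, and 2 differences were called, both through the 21-day Col arrays. In Col the signal was 21, 12.5 and 13.4 at 9 days and 1.37, 1.93 and 0.719 at 21 days. The 2 ages did not overlap, and the fall was -2.77 (SE 0.66, adjusted p = 0.013). That was 1 of 4 genes called between the Col ages, beside 3.11% of all probe sets. It missed the threshold without Col replicate 1 at 9 days (-2.55, adjusted p = 0.068) and without Col replicate 3 at 21 days (-2.58, adjusted p = 0.058). In Ler GH3.3 stood at 14.3, 22.6 and 19.2 at 9 days and at 10.2, 16.5 and 6.42 in the first set at 21 days. These ranges overlapped, with a difference of -0.77 (adjusted p = 0.53).

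At 21 days GH3.3 was higher in Ler (1) than in Col by 2.26 (SE 0.66, adjusted p = 0.031), again with no overlap. The call was lost on 5 of 6 omissions of an array, with values from 1.95 to 2.56 and adjusted p up to 0.15; omitting Ler (1) replicate 3 kept it. Since the 21-day Col mean of 1.34 lies far under 12, the size of both differences depends on the constant added: with 16 in place of 1.1 they were 0.62 (adjusted p = 0.11) for Ler (1) against Col and -0.86 (adjusted p = 0.03) for the Col ages. At 9 days Ler and Col differed by 0.26 (adjusted p = 0.87).

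In the ago1 mutants no GH3.3 difference was called. In 9-day ago1-10 the arrays read 6.75, 0.649, 4.55 and 14.8, against 14.3 to 22.6 in Ler. Of the 4 arrays 3 lay under every Ler array and replicate 4, the MR49 array, within the Ler range. The difference was -1.72 (SE 0.62, adjusted p = 0.053). Without replicate 4 it was -2.19 and passed the threshold (adjusted p = 0.017), and with 16 added it was -0.64 (adjusted p = 0.04). The 21-day ago1-10 arrays (10.2, 8.87 and 1.44) gave -0.79 (adjusted p = 0.42), and the 35-day arrays read 1.98, 8.77 and 1.06.

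In ago1-11 GH3.3 was 9.68, 7.58, 2.03 and 17 at 9 days and 8.65, 17.2 and 40.9 at 21 days. The differences from Ler were -1.19 (adjusted p = 0.3) and 0.77 (adjusted p = 0.6), with overlapping ranges at both ages. The array at 40.9 was the brightest of all 37 for this gene. In dcl1-9 the arrays read 9.93, 11.1, 8.81 and 4.66, against 15.6, 8.06, 19.5 and 9.55 in Ler (2), a difference of -0.53 (adjusted p = 0.89), or -0.2 without Ler (2) replicate 1 and dcl1-9 replicate 4.

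WES1, a GH3 enzyme known to act on indole-3-acetic acid and on salicylic acid, had no called difference in any of the 17 comparisons. In 9-day Ler the 3 arrays were far apart: replicate 1 read 67.5 and the other two 21.5 and 19.2. In 9-day ago1-10 they read 33.5, 74.5, 44.4 and 30.2, and in 9-day ago1-11 43.4, 48.9, 39.5 and 46.8. Both mutants thus lay within the wide Ler range or just above it, with differences of 0.47 (adjusted p = 0.45) and 0.53 (adjusted p = 0.5).

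At 21 days WES1 read 60.3, 48.5 and 48.8 in Ler (1), 31.9, 36.5 and 20.5 in ago1-10, and 26.6, 30.4 and 23.3 in ago1-11. Every ago1 array lay under every Ler (1) array, yet neither difference passed the threshold: -0.84 (SE 0.4, adjusted p = 0.14) and -0.95 (SE 0.4, adjusted p = 0.23). Against the second Ler set (74.1, 59.9, 132.7 and 42.4) both passed, at -1.27 (adjusted p = 0.012) and -1.38 (adjusted p = 0.015). Without replicate 1 of that set they were -1.24 (adjusted p = 0.027) and -1.35 (adjusted p = 0.032). Against Col (30.1, 29.1 and 30.3) the differences were -0.05 and -0.16, so the size of the WES1 difference followed the choice of wild type. The 35-day ago1-10 arrays read 27.6, 30.4 and 19.6, within the range of the 21-day ago1 arrays or just under it.

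No age contrast of WES1 passed the test, and the 2 wild types differed in its sign. The 21-day minus 9-day difference was 0.76 (adjusted p = 0.27) in Ler and -0.72 (adjusted p = 0.37) in Col, whose arrays did not overlap between the ages, while ago1-10 and ago1-11 gave -0.55 (adjusted p = 0.38) and -0.72 (adjusted p = 0.39). The differences between these age contrasts, mutant minus Ler, were -1.31 (adjusted p = 0.16) and -1.48 (adjusted p = 0.14). Without Ler replicate 1 at 9 days, the array at 67.5, they were -1.87 (adjusted p = 0.025) and -2.04 (adjusted p = 0.018), and then the Ler age difference (1.32, adjusted p = 0.034) and Ler against Col at 9 days (-1.25, adjusted p = 0.036) passed too. In dcl1-9 WES1 spread from 37.1 to 159 (60.2, 159, 81.4 and 37.1), a spread that covers the Ler (2) arrays, and the difference was 0.05 (adjusted p = 0.99), or 0.4 without Ler (2) replicate 1 and dcl1-9 replicate 4.

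IAGLU, a glucosyltransferase that joins indole-3-acetic acid to glucose, was the one gene of the 4 called lower in both ago1 alleles against Ler (1). At 21 days its signal was 213.2, 80 and 158 in Ler (1), against 30.2, 28.4 and 43.7 in ago1-10 and 33.1, 21.2 and 36.1 in ago1-11. The lowest Ler (1) array lay well above the highest ago1 array. The fall was 4.06-fold in ago1-10 (log2 -2.02, SE 0.29, adjusted p = 9.7e-06) and 4.6-fold in ago1-11 (log2 -2.2, SE 0.29, adjusted p = 3.9e-05). In ago1-11 it had the smallest p of all 6048 probe sets, and in ago1-10 it ranked 28. Since the 4 genes were chosen with earlier results of these data known, these ranks and the shares below are a description.

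IAGLU was thus 1 of 4 genes called lower in 21-day ago1-10, where 20.6% of all probe sets were called, and 1 of 4 in 21-day ago1-11, where 2.4% were. These shares count both directions: of 6048 probe sets 660 were called lower in ago1-10 and 73 in ago1-11. Both falls share the Ler (1) arrays. Against the other wild types, Ler (2) (199.9, 140.7, 122.2 and 142.5) gave -2.12 and -2.3, and Col (176.2, 194.6 and 206.2) gave -2.48 and -2.66, each with an adjusted p under that with Ler (1). Without Ler (2) replicate 1 the first pair became -1.97 and -2.16. Over all omissions of 1 array the ago1-10 value stayed between -2.42 and -1.72 and the ago1-11 value between -2.6 and -1.9, with every adjusted p at or under 0.00097. In whole-seedling RNA, fewer cells of a type and less RNA per cell cannot be told apart. The summed signal of the 7 green markers was 17082.6 to 18676.6 in Ler (1), 6139.5 to 9978.5 in 21-day ago1-10 and 15044.8 to 16540.2 in 21-day ago1-11. Against Ler (1) the green sum was thus lower without overlap in both mutants, by far more in ago1-10 than in ago1-11. In Ler (2) the sum was 12078.9 to 15262.3 and in 21-day Col 14840.2 to 22939.1. Both of these ranges lay above ago1-10 but overlapped that of ago1-11. The part of the green sum in the result was not tested.

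At 9 days IAGLU differed less. It read 80.5, 59.7 and 63.8 in Ler, 63.8, 43.2, 46.1 and 65.9 in ago1-10, and 43.7, 32.7, 31.9 and 41.9 in ago1-11. The ago1-10 arrays overlapped Ler, at -0.32 (SE 0.27, adjusted p = 0.48). All ago1-11 arrays lay under all Ler arrays, at -0.84 (SE 0.27, adjusted p = 0.066). Against Col (98.6, 161.9 and 122) both values passed, at -1.2 (adjusted p = 0.0011) and -1.72 (adjusted p = 1.8e-05). They hold the difference between the wild types, Ler minus Col -0.88 at 9 days (adjusted p = 0.046), as well as that of the mutants from Ler. In 9-day ago1-10 no member was called beside 15.9% of all probe sets, and at an unadjusted p under 0.05 there were 2, GH3.3 and IAA18. In 9-day ago1-11 none was called beside 4.28%, and 1, IAGLU, at an unadjusted p under 0.05.

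IAGLU rose with age in Ler, and in Col its means differed the same way without passing the test. The Ler difference was 1.03 (SE 0.29, adjusted p = 0.027), although Ler (1) replicate 2, at 80, lay just under the brightest 9-day array. IAGLU was 1 of 4 genes called higher, beside 146 of 6048 probe sets called higher and 6.68% called in either direction. This call was lost on 4 of 6 omissions (0.73 to 0.99, adjusted p from 0.1 to 0.18), those of Ler replicates 2 and 3 at 9 days and of Ler (1) replicates 1 and 3. With the second Ler set the value was 1.13 (adjusted p = 0.0038), and 0.99 (adjusted p = 0.019) without its replicate 1. The green marker sum was lower in Ler (1) (17082.6 to 18676.6) than in 9-day Ler (19324.5 to 23760.1), and its part was not tested. Col arrays did not overlap between the ages, at 0.62 (adjusted p = 0.27).

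In the mutants the same age contrast was -0.67 (adjusted p = 0.11) in ago1-10 and -0.33 (adjusted p = 0.65) in ago1-11. The change with age in ago1-10 differed from that in Ler by -1.7 (SE 0.4, adjusted p = 0.011), 1 of 4 genes called beside 4.79% of all probe sets. For ago1-11 that difference was -1.36 (SE 0.4, adjusted p = 0.063). None of the 4 was called there beside 1.7%, with 3 (GH3.3, WES1 and IAGLU) at an unadjusted p under 0.05. The ago1-10 value kept its call on 13 of 13 omissions (adjusted p from 0.0013 to 0.049). The ago1-11 value passed without Ler replicate 1 at 9 days (-1.49, adjusted p = 0.033), without Ler (1) replicate 2 (-1.76, adjusted p = 0.0092) and without ago1-11 replicate 3 at 21 days (-1.5, adjusted p = 0.037). Both contrasts share the Ler arrays. At 35 days ago1-10 read 31.6, 41.2 and 45, a difference of 0.21 from 21 days (adjusted p = 0.93). Omitting 1 array at a time, it ran from 0.09 to 0.39. The arrays whose title numbers are out of step with their age read 43.7 (21-day replicate 3) and 31.6 (35-day replicate 1).

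**Figure D2:**
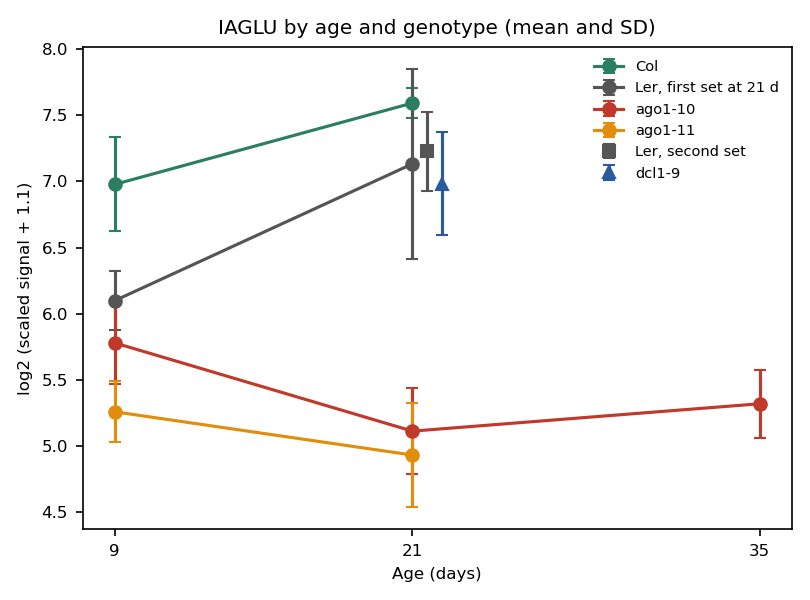
IAGLU as log2 (scaled signal + 1.1) against age in days; points are group means, error bars are SD over 3 or 4 arrays, lines join the ages of a genotype, and the second Ler set and dcl1-9 are drawn beside 21 days. Ler and Col means lie higher at 21 than at 9 days, by 1.03 and 0.62, while both ago1 means lie lower, and dcl1-9 lies among the wild types.

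In dcl1-9 IAGLU read 94.8, 112.9, 128.6 and 180.2, within the span of Ler (1) and above every ago1 array. The arrays at 94.8 and 112.9 lay under all 4 Ler (2) arrays, and the other two among them. The difference from Ler (2) was -0.24 (95% confidence interval -0.75 to 0.27, adjusted p = 0.88). No member was called in dcl1-9, where 0.81% of all probe sets were, and none had an unadjusted p under 0.05. Without Ler (2) replicate 1 and dcl1-9 replicate 4 the value was -0.28, and the count was still 0. The green marker sum was 10141.8 to 12047.2 in dcl1-9, under the 12078.9 to 15262.3 of Ler (2), and its part was not tested. The difference between the ago1 and dcl1-9 effects was not tested.

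**Figure D3:**
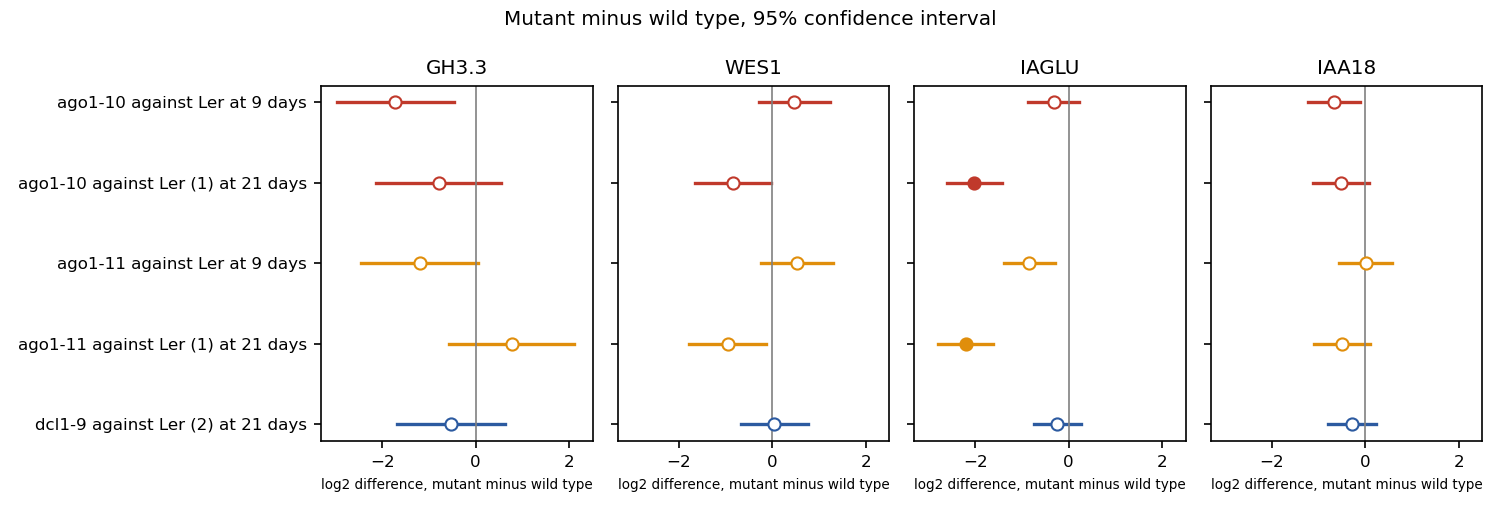
Difference in log2 (signal + 1.1), mutant minus Ler of the same age, for each of the 4 genes; points are the fitted values, bars their 95% confidence intervals, and filled points were called. The filled points are those of IAGLU at 21 days, -2.02 in ago1-10 and -2.2 in ago1-11.

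IAA18 encodes an Aux/IAA repressor. It did not fall past the test in the ago1 mutants against 9-day Ler or Ler (1), nor in dcl1-9 against Ler (2). Yet it differed between wild types, and against Ler (2) both ago1 mutants fell past the test at 21 days, as given below. At 9 days it read 28.7, 25.6 and 28.1 in Ler and 48.1, 62.5 and 82.8 in Col, which did not overlap. The difference, Ler minus Col, was -1.17 (SE 0.3, adjusted p = 0.0081). Without Col replicate 3 this was -0.97 (adjusted p = 0.073). IAGLU was called lower in Ler as well (-0.88, adjusted p = 0.046). That call was lost on 4 of 6 omissions (adjusted p from 0.11 to 0.21), those of Ler replicates 2 and 3 and Col replicates 2 and 3. Thus 2 of 4 genes were called lower, beside 337 of 6048 probe sets called lower and 10.5% called in either direction. The green marker sum was higher in 9-day Ler (19324.5 to 23760.1) than in 9-day Col (12959.6 to 16168.8), and its part in these differences was not tested.

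At 21 days IAA18 read 36.5, 24 and 25.9 in Ler (1) and 59.9, 88.8 and 31.2 in Col. Col replicate 3 lay inside the Ler (1) range, and the difference of -0.93 (adjusted p = 0.049) was lost on 4 of 6 omissions (-0.88 to -0.6, adjusted p from 0.16 to 0.35), those of Ler (1) replicates 2 and 3 and Col replicates 1 and 2. With GH3.3 higher and IAA18 lower, 2 of 4 genes were called between Ler (1) and Col, beside 6.8% of all probe sets.

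IAA18 was higher in the second Ler set than in the first. Its arrays read 44, 96.8, 78 and 78, all above the 3 Ler (1) arrays, and the difference was 1.3 (SE 0.28, adjusted p = 0.0071), rank 35 of 6048. Only 1.85% of all probe sets were called between the Ler sets, and IAA18 was 1 of 4 genes. Without Ler (2) replicate 1, the Ler21 array and the lowest, the value was 1.53 (adjusted p = 0.0013), and without Ler (1) replicate 2 it was 1.19 (adjusted p = 0.086). The green marker sum was 12078.9 to 15262.3 in Ler (2), under the 17082.6 to 18676.6 of Ler (1), and its part in the result was not tested. In dcl1-9 IAA18 read 49.2, 63.6, 60.9 and 62.2, at -0.28 from Ler (2) (adjusted p = 0.84), or -0.53 without Ler (2) replicate 1 and dcl1-9 replicate 4. Against Ler (1) the sign turned, to 1.02 (adjusted p = 0.024), and without dcl1-9 replicate 4 to 1 (adjusted p = 0.057).

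Some genes that follow IAA18 in locus order also differed between the Ler sets. This stretch, AT1G51950 to AT1G62480, was chosen after its values were seen, so its counts are a description. Both of its end genes are among those called, which raises the share called inside it. Of its 101 named probe sets 12 (11.9%), IAA18 among them, were called between Ler (2) and Ler (1), against 42 of 2553 elsewhere (1.65%). The sign was opposite to that of Ler (1) against Col in 10 of the 12 and in 35 of the 42 elsewhere; both comparisons share the Ler (1) arrays, and nothing particular to the stretch is read from these signs. AT1G61190, annotated as a disease resistance gene of the NB-LRR type, was at 1.06 to 10.6 on the 6 Ler and Ler (1) arrays, at 161.1 to 325.1 on the 6 Col arrays, and high on 3 of 4 Ler (2) and 3 of 4 dcl1-9 arrays. Its low Ler (2) array is also the lowest of that set for IAA18, but its low dcl1-9 array (62.2 for IAA18) is not. Whether these arrays carry Col sequence there was not tested.

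In ago1-10 IAA18 read 15.1, 13.1, 17.9 and 23.2 at 9 days, 18.9, 17 and 22.7 at 21 days, and 19.1, 21.8 and 18.3 at 35 days. All 9-day and 21-day arrays lay under every Ler array of their age, with differences of -0.66 (SE 0.28, adjusted p = 0.1) and -0.52 (SE 0.3, adjusted p = 0.21). In ago1-11 it read 32.7, 20.2, 29.4 and 30.2 at 9 days and 14.8, 20.4 and 25.6 at 21 days, overlapping Ler both times (0.02, adjusted p = 0.99, and -0.49, adjusted p = 0.42). Against Ler (2) the 21-day differences were -1.83 (adjusted p = 9.8e-06) and -1.8 (adjusted p = 4.9e-05), and -2.05 and -2.02 without its replicate 1. Against Col they were -1.46 (adjusted p = 0.00028) and -1.43 (adjusted p = 0.00094). The call of IAA18 in the ago1 mutants therefore depended on which wild type was used.

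Between the alleles none of the 4 genes was called, at 9 days beside 13.3% of all probe sets and at 21 days beside 7.51%. At an unadjusted p under 0.05 there were 2 at 9 days, IAGLU (ago1-11 minus ago1-10 -0.52) and IAA18 (0.68), and 1 at 21 days, GH3.3 (1.57). The IAA18 value passed without ago1-10 replicate 4, the MR49 array (0.82, adjusted p = 0.048), and without ago1-11 replicate 2 (0.82, adjusted p = 0.035). With age none of the 4 was called in ago1-10 from 9 to 21 days, beside 9.87%, in ago1-11 from 9 to 21 days, beside 2.6%, or in ago1-10 from 21 to 35 days, beside 0.0496%. At an unadjusted p under 0.05 there was 1 (IAGLU) in the first of these contrasts and 0 in the other two. The 35-day arrays differ from the 21-day ago1-10 arrays in strain code as well as age.

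Ordered by group mean on the log2 scale, GH3.3 ran from 21-day ago1-11 (22.2) down to 21-day Col (1.34), and WES1 from dcl1-9 (84.4) to 35-day ago1-10 (25.9). IAGLU ran from 21-day Col (192.3) to 21-day ago1-11 (30.1), and IAA18 from Ler (2) (74.2) to 9-day ago1-10 (17.3). Neighbouring groups in these orders overlapped in 10 of 10 cases for GH3.3, WES1 and IAA18 and in 9 of 10 for IAGLU. Over the 11 group means, which share the scaling and the arrays' RNA, IAGLU and IAA18 varied together most (Pearson r 0.83), followed by WES1 with IAA18 (0.65) and WES1 with IAGLU (0.59). GH3.3 followed none of them, with r from -0.08 to 0.29.

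Other auxin genes were thinly covered. Of 116 listed loci for auxin synthesis, transport, conjugation, breakdown, perception and response, 12 had a named probe set and 9 could be tested, 5 of them besides the 4 genes above. These were the Aux/IAA genes IAA15 and IAA20, the auxin glucosyltransferase gene UGT74D1, the synthesis gene YUC2, which encodes a flavin monooxygenase, and HAT2, an auxin-induced homeobox gene. GH3.1, GH3.9 and UGT84B1, a further auxin glucosyltransferase gene, were too dim to test, and 0 of the listed auxin response factor, receptor and transport genes were measured. IAA20 was read from the brightest of its probe sets, and its others (mean signals 3.74 and 1.81) were too dim to test. Of the 5 genes 2 fell in 9-day ago1-10, 1 in 21-day ago1-10, 1 in 9-day ago1-11, 0 in 21-day ago1-11 and 0 in dcl1-9, and 0 rose in these 5 comparisons. The share of all probe sets called in them was 15.9, 20.6, 4.28, 2.4 and 0.81%, so that 1 of 5 in 21-day ago1-10 is at that level. Their median differences were -0.8, -1.09, -0.69, -0.48 and -0.46, against -0.01, 0.01, -0.05, -0.02 and -0.03 over all probe sets tested. YUC2, not called, gave the median in 9-day ago1-10 (mean signal 7.53 against 13.3 in Ler) and 21-day ago1-10 (3.39 against 8.92). IAA15, not called, gave it in 9-day ago1-11 (6.8 against 9.56) and dcl1-9 (5.87 against 7.97). These signals of YUC2 and IAA15 lie mostly under the filter value of 12. In 21-day ago1-11 HAT2 (33.4 against 47) and UGT74D1 (15.3 against 21.2) stood at the median, above 12, and neither was called. With only 5 genes, no general fall is read from the medians.

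HAT2 was the one tested gene of the list that fell at both ages of ago1-10. Its mean signal was 17 ± 2 (SD, n = 4) against 47 ± 4.45 (SD, n = 3) in Ler at 9 days, a difference of -1.41 (SE 0.22, adjusted p = 2.7e-05). At 21 days it was 21.3 ± 5.33 (SD, n = 3) against 47 ± 4.09 (SD, n = 3), a difference of -1.13 (SE 0.23, adjusted p = 0.00075). The 9-day call held on 7 of 7 omissions and in 8 of 8 other settings, and the 21-day call on 6 of 6 and in 10 of 10. In 9-day ago1-11 it was 27.4 ± 2.88 (SD, n = 4), at -0.76 (adjusted p = 0.041), which was lost on 6 of 7 omissions (-0.83 to -0.69, adjusted p up to 0.16), all except that of ago1-11 replicate 1. It held in 4 of 8 other settings, and was lost with trimmed scaling, no filter, only the groups compared and the replicate block (highest adjusted p = 0.14). In 21-day ago1-11 HAT2 was at -0.48 (adjusted p = 0.3) and in dcl1-9 at -0.48 (adjusted p = 0.43), or -0.31 without Ler (2) replicate 1 and dcl1-9 replicate 4. At 9 days ago1-11 lay above ago1-10 at HAT2 by 0.66 (adjusted p = 0.029).

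UGT74D1 fell in 9-day ago1-10, from 25.8 ± 13.2 (SD, n = 3) in Ler to 8.6 ± 3.26 (SD, n = 4), a difference of -1.43 (SE 0.4, adjusted p = 0.013). This call was lost on omission of Ler replicate 2 (-1.07, adjusted p = 0.12) or of ago1-10 replicate 1 (-1.13, adjusted p = 0.063). At 21 days it was at -1.11 (adjusted p = 0.062) in ago1-10 and -0.48 (adjusted p = 0.63) in ago1-11. The other 3 genes, IAA15, IAA20 and YUC2, were not called in any of the 5 comparisons of a mutant with Ler, with differences from -1.09 to 0.24. Green marker sums in 9-day ago1-10 were 9425 to 12799.6, against 19324.5 to 23760.1 in Ler, and their part in these falls was not tested.

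The genes whose group means were most like each of the 4, among 2659 named probe sets, are given by Pearson r over the 11 groups. For IAGLU they were TBL37 (0.927), a member of the trichome birefringence-like family, AT4G38250 (0.911) and AT1G11340 (0.906). For IAA18 they were AT4G15750 (0.942), AT4G38250 (0.938) and AT1G61190 (0.934), so IAGLU and IAA18 shared AT4G38250, annotated as an amino acid transporter. For WES1 they were AT1G27000 (0.945), SAG29 (0.873), the sugar transporter gene also called SWEET15, and AT2G25970 (0.869). GH3.3 had the weakest likenesses, with AT1G23030 (0.837), AT2G43180 (0.825) and AT4G32780 (0.806). Some of these genes lay near or under the filter value of 12. Group means ran from 8.95 to 13.8 for AT2G43180, from 3.36 to 11.2 for AT4G32780 and from 1.11 to 12.1 for AT1G11340. Each r is among the highest of 2659, and none was tested. At r above 0.8 there were 3 probe sets for GH3.3, 10 for WES1, 44 for IAGLU and 78 for IAA18.

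**Figure D4:**
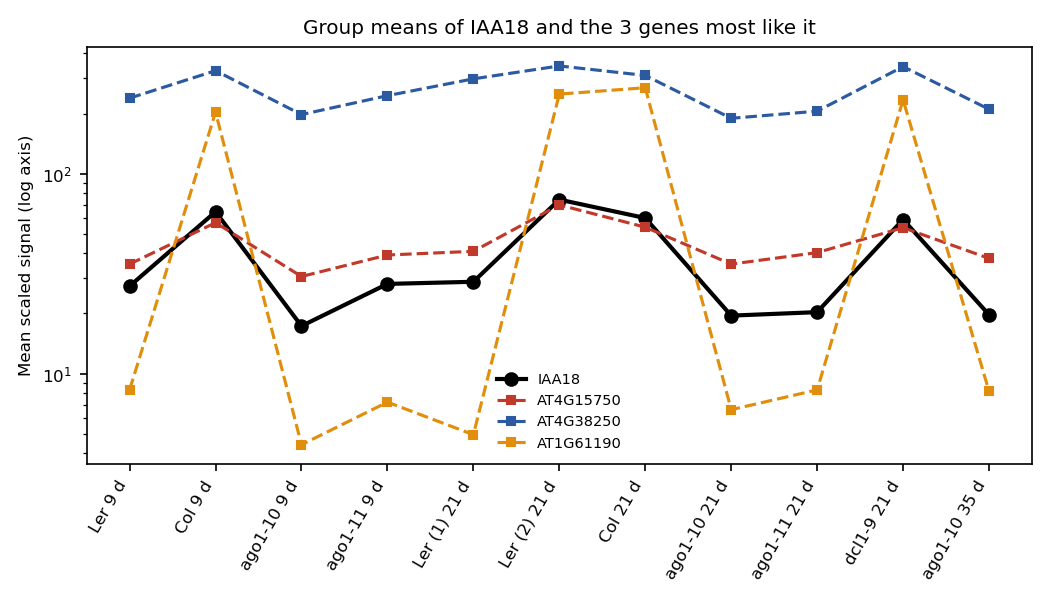
Mean scaled signal (log axis) of IAA18 and of the 3 named genes most like it in each of the 11 groups; points are group means, and only the shapes of the lines compare, not their heights. All 4 lines lie higher in Col, Ler (2) and dcl1-9 than in 9-day Ler, Ler (1) and the ago1 groups. AT1G61190 moves most, from a mean of 4.95 in Ler (1) to 250.2 in Ler (2).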

How the data were processed

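The authors deposited linear MAS5 signal intensity, per the submitters' processing notes. No MAS5 version, target or annotation is stated in what was used here. Of the deposited values, 7913 of 305139 values hold exactly 3 decimals, a point between digit groups, and were multiplied by 1000; none belongs to the 4 genes. Groups follow the background and age in the labels, and replicates are biological by the series' design text, so p-values measure the spread between these arrays. Arrays were scaled to equal medians, and probe sets over 12 on at least 3 arrays were kept (6048 of 8247). The log2 was then taken of the scaled intensities plus 1.1 (the 10th percentile of all scaled values). One limma model (3.58.1, R 4.3.3; lmFit and eBayes with trend) held a mean for each of 11 groups; the 17 comparisons, including 2 differences of age effects, were contrasts of it, adjusted over all 6048 probe sets. Python 3.11.15, pandas 2.3.3 and matplotlib 3.10.9 drew the figures. The fit was tested on simulated data.

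The members and gene lists were chosen with earlier results of these data known. Text names the 4 genes, the listed auxin genes called in any mutant comparison, and the 3 probe sets with 1 gene most correlated with each member. The other 3 listed auxin genes, AT1G61190 and the stretch after IAA18 were picked after their values were seen. Arrays whose titles share a letter or number were not treated as pairs, because in none of 14 comparisons was every correlation of their deviations over 0.1. Some did correlate: r ran from 0.06 to 0.27 between alleles at 21 days and from 0.062 to 0.175 for dcl1-9 against Ler (2). For ago1-10 at 35 against 21 days it ran from -0.121 to 0.464. Symbols come from the platform annotation and the TAIR10.1 gene table. No promoter or protein sequence was used here.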

Additional observations from a re-analysis of the deposited data

Results flagged for a closer look

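IAA18 on dcl1-9 replicate 1 (49.2) lay below the other 3 dcl1-9 arrays (60.9 to 63.6). On the log2 scale the gap was 0.832 of the group's range, just above the critical value of 0.829. Of 16 gene and group combinations with 4 arrays 1 passed, and chance alone gives about 1 in 20. Without that array the difference from Ler (2) was -0.19, against -0.28 with it.

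The change of IAGLU with age differed between ago1-10 and Ler by -1.7 (adjusted p = 0.011), from 68 to 150.4 in Ler and from 54.7 to 34.1 in ago1-10. With only the 4 groups compared in the fit, its adjusted p was 0.06.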

How the results depend on the processing

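The alternatives were quantile normalization, scaling to a mean trimmed by 2%, 16 or 1 added before log2, no filter, a fit with only the groups compared, the title letter or number as a replicate block, other wild types, and each array left out in turn. Omitting Ler (2) replicate 1 or dcl1-9 replicate 4 together with a change of wild type was chosen after seeing the data. The 21-day falls of IAGLU kept their call in every alternative tried, with values from -2.48 to -1.66 in ago1-10 and from -2.66 to -1.78 in ago1-11. Causes of the changes below were not tested. For these alternatives the share of all probe sets called is not given, so the counts of the 4 genes are not read against a general level. GH3.3 lay above the filter value of 12 on 13 of 37 arrays, so its differences depend on the constant added.

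The number of the 4 genes called moved from 0 to 1 in 9-day ago1-10 with 16 added. Ler against Col at 9 days moved from 2 to 1 with quantile normalization and with no filter. Ler (1) against Col moved from 2 to 0 with quantile normalization and with only the groups compared, and to 1 with trimmed scaling, 16 added or no filter. With only the groups compared, the counts for Ler (2) against Ler (1), for Ler ages and for the ago1-10 age difference from Ler moved from 1 to 0. The ago1-11 age difference from Ler moved from 0 to 1 with trimmed scaling.

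The replicate block, in which the arrays share only a number, moved the count in 21-day ago1-10 from 1 to 2, in Ler against Col at 9 days from 2 to 0, in Ler (1) against Col from 2 to 0 and in Ler ages from 1 to 0. It turned the sign of IAA18 in 9-day ago1-11 (-0.05), of GH3.3 in Ler against Col at 9 days (-0.17) and of UGT74D1 in dcl1-9 (-0.01). It could not be fitted for Ler (2) against Ler (1), whose titles share no letter or number.

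With Ler (2) as the 21-day wild type the count was 3 in ago1-10, 3 in ago1-11, 3 in Ler ages, and 2 and 3 in the ago1-10 and ago1-11 age differences from Ler. Without its replicate 1 these counts were 3, 3, 2, 2 and 3, and that for Ler against Col was 1. The share of all probe sets called is not given beside these counts, so they are not read as a result about the 4 genes. IAA18 turned sign in Ler against Col (0.37, and 0.6 without that replicate) and in the ago1-10 age difference (-1.17, and -1.39). With Ler (1) as the wild type of dcl1-9 the count was 1, IAA18 was 1.02 (1 without dcl1-9 replicate 4) and UGT74D1 -0.26 (-0.25). Leaving out both unlike arrays gave UGT74D1 -0.01.

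With Col as wild type the counts, again without the share of all probe sets called, were 2 and 2 in ago1-10 at 9 and 21 days. They were 2 and 3 in ago1-11, and 2 in dcl1-9. Such comparisons also hold the difference between Ler and Col. Between these wild types 10.5% of all probe sets were called at 9 days and 6.8%, with Ler (1), at 21 days. Signs then turned for WES1 at 9 days in ago1-10 (-0.21) and ago1-11 (-0.16), GH3.3 in 21-day ago1-10 (1.47), IAA18 in 9-day ago1-11 (-1.15), and in dcl1-9 for GH3.3 (1.97), IAA18 (0.09) and UGT74D1 (-0.44).

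Leaving out 1 array at a time, the count ran from 0 to 1 in 9-day ago1-10, Ler (1) against Col, Ler (2) against Ler (1), Col ages and the alleles at 9 days, from 0 to 3 in Ler against Col at 9 days, from 0 to 2 in Ler ages and the ago1-11 age difference, and from 1 to 2 in the ago1-10 age difference. Uncalled differences that crossed zero were IAA18 in 9-day ago1-11 (-0.06 to 0.16), in Ler ages (-0.13 to 0.16), in Col ages (-0.53 to 0.21), between alleles at 21 days (-0.15 to 0.23) and in ago1-10 from 21 to 35 days (-0.07 to 0.13). GH3.3 did so between the Ler sets (-0.06 to 0.55), between alleles at 9 days (-0.06 to 1.01) and in ago1-10 ages (-0.43 to 0.84), and IAGLU between the Ler sets (-0.3 to 0.4) and between alleles at 21 days (-0.32 to 0.04). WES1 did so between alleles (-0.11 to 0.32 at 9 days, -0.35 to 0.05 at 21 days), in ago1-10 from 21 to 35 days (-0.41 to 0.01) and in dcl1-9 (-0.31 to 0.38), and UGT74D1 in dcl1-9 (-0.02 to 0.35).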
